A study of Canis lupus familiaris with 2 samples.

Results

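CpG sites whose strands carried opposite methylation were collected from whole-genome bisulfite sequencing of MDCK, a dog kidney line with epithelial traits. One culture had been given TGF-beta at 5 ng/ml for 30 days and is labelled mesenchymal, and the other was left untreated, was grown in parallel over the same 30 days and is labelled epithelial. Each group has 1 library from 1 culture, so no comparison of the cultures has a replicate check. A CpG reads as CpG on each strand, so the plus-strand cytosine at a position and the minus-strand cytosine at the next position form a site. Sites on the 38 autosomes were eligible with at least 8 calls on each strand in both libraries, where a call is a read base scored as methylated or unmethylated. Members were the eligible sites with one strand at 80% methylated or more and the other at 20% or less in the control. Of 5093136 eligible sites 1004 met that rule, 0.0197% or 1.97 per 10000. The sites were thus chosen by their control counts, so their control levels are a description, and tests were made on the TGF-beta counts alone.

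DNA methylation in mammals sits mostly on CpG sites and is normally present or absent on both strands together. Replication pairs a methylated parental strand with a newly made strand that lacks methyl groups, and the methyltransferase DNMT1, guided to such sites by UHRF1, restores the missing mark. A site that stays methylated on a single strand is called hemimethylated. In bisulfite sequencing each strand is read from its own molecules, so opposite levels can also come from sampling few molecules. A cytosine that is a thymine in these cells is read as unmethylated. The calls of that strand alone do not tell such a sequence variant from an unmethylated cytosine, and a variant at a single base was not tested. No genome sequence or gene annotation of the canFam3 build is used here, so the sites are given by position alone.

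The TGF-beta library held 907617405 autosomal calls and the control library 580501050. Eligible sites had a median of 56 calls in the TGF-beta library and 32 in the control, and made up 23.8% of the autosomal sites with both strands listed. Mitochondrial CpG cytosines were at 0.329% methylated in the TGF-beta library and at 0.211% in the control. These levels are an upper bound on failed conversion of mitochondrial DNA, and that of nuclear DNA was not measured. The same low level told which column holds methylated calls, so it is not a separate check of that. The intervals given are Clopper-Pearson 95% intervals (exact binomial). They reflect counting error alone, because reads without molecular identifiers are not independent molecules.

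In the control the members lay close to the limits that chose them, and they were shallow. The low strand had a median of 15.4% and the high strand of 86.7%, and only 42 members were at 10% or less on one strand and 90% or more on the other. The plus strand was the low one at 528 sites and the minus strand at 476, so the plus strand was low in 52.6% (49.4 to 55.7). Members had a median of 23 control calls over both strands, against 32 at all eligible sites. The shallower control strand had 8 to 14 calls at 949 members, and 6 members had 20 calls or more on every strand of both libraries. The low strand was the deeper one at 467 members and the shallower one at 435. Loosening the limits to 70% and 30% admitted 11576 sites, so most sites near this pattern lay just outside it.

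**Figure D1:**
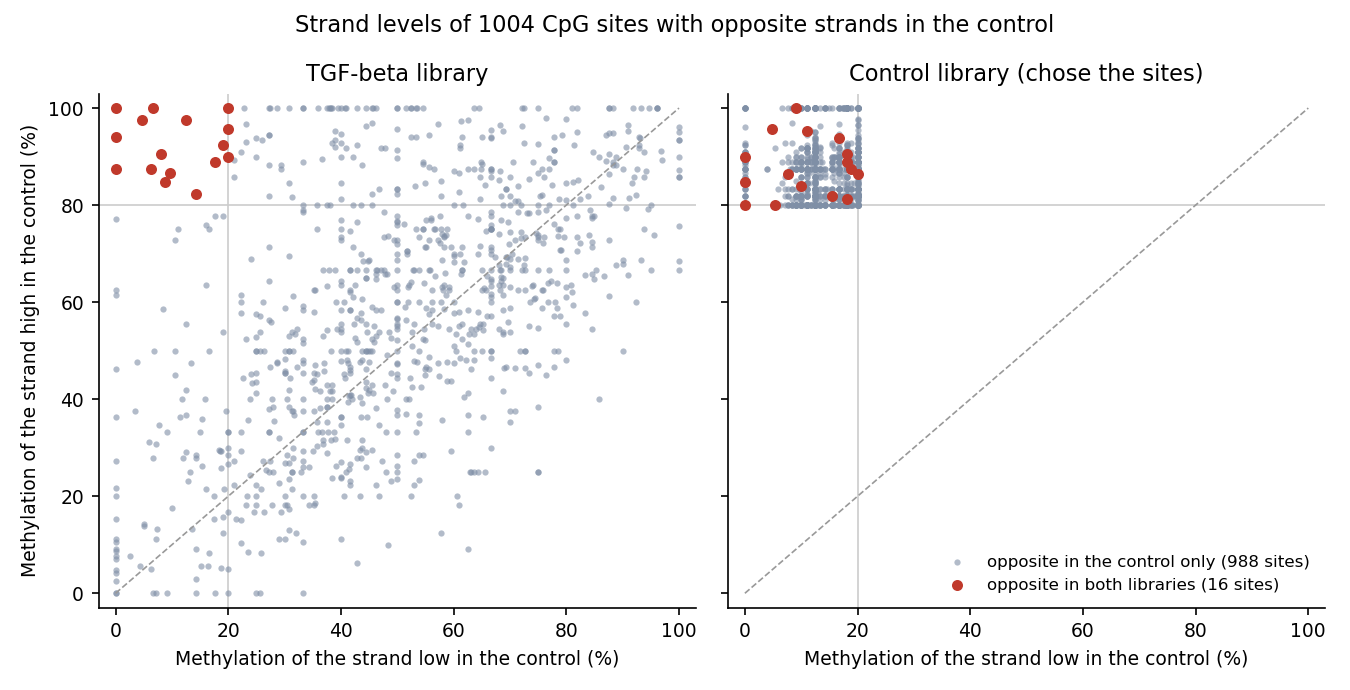
Methylation of the 1004 sites in the TGF-beta library (left) and in the control (right), with the strand low in the control on the x axis and the strand high in the control on the y axis, both in percent. Grey lines mark 20% and 80%, the dashed line marks equal strands, and red points are the 16 sites that met the limits in both libraries. In the TGF-beta library the cloud spreads along the line of equal strands.

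In the TGF-beta library the strands of most members were at similar levels, and at 684 of 1004 both fell in the same class of 20% or less, between the limits, or 80% or more. The strand low in the control averaged 50.1% ± 23.2 in the TGF-beta library and 14.4% ± 5.18 in the control (SD over 1004 sites), and the strand high in the control averaged 58.7% ± 25.2 and 86.6% ± 5.95. With calls summed over sites, the strand low in the control was at 50.0% (49.4 to 50.6, 25962 calls) in the TGF-beta library, and the other strand at 59.4% (58.7 to 60.0, 23159 calls). The strands thus differed by a mean of 8.57 points ± 24.4 (SD over sites) and a median of 5.29 points in the TGF-beta library, against a mean of 72.3 points in the control that chose them. Both strands lay between 20% and 80% at 581 members, 57.9% of them, against a background of 18.1% over all eligible sites. Both were at 80% or more at 63 members, or 6.27%, against a background of 56.9%, and both at 20% or less at 40, or 3.98%, against 12.9%.

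The same strand was low again, by the same limits, at 16 of the 1004 members, or 1.59% (0.914 to 2.58), against 0.00925% of all eligible sites with either strand low. Eligible sites at 30% to 70% in the control, with strands within 20 points, are a nearer comparison. Of these 538602 sites, 0.0254% (0.0214 to 0.0301) met the limits in the TGF-beta library with either strand low. The opposite strand was low at 0 of 1004, with an interval that reaches 0.367%, where 3 sites of the total would be 0.299%. By direction, the background in the TGF-beta library was 0.00465% of eligible sites with the plus strand low and 0.00459% with the minus strand low. Among members the plus strand was low again at 6 of 528 and the minus strand at 10 of 476, or 1.14% (0.418 to 2.46) and 2.10% (1.01 to 3.83). Both shares lay above the background for their direction. The remaining 988 members did not meet the limits in the TGF-beta library. Among them were 10 that the strand test described below called with the same strand lower.

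Below these limits the strand low in the control leaned the same way in the TGF-beta library. It was the lower strand at 593 members, 59.1% (55.9 to 62.1), the higher strand at 402 and equal at 9. Over all eligible sites with unequal control strands the matching share was 47.6%, in which ties count as not matching. The number of ties in that background was not taken. The 47.6% thus does not show that most of those sites leaned the other way. A difference of 20 points or more pointed the same way at 261 members and the other way at 88. One of 60 points or more pointed the same way at 48 members and the other way at 0. On single autosomes the share of members leaning the same way ran between 25% and 88.9%, and it was over 50% on 30 of 38.

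Fisher's exact test of plus-strand against minus-strand calls was run within the TGF-beta library over all 5093136 eligible sites, and a site was called at a Benjamini-Hochberg adjusted p under 0.05 with at least 20 points between strands. It called 340 sites, a background of 0.00668% (0.00355% with the plus strand lower and 0.00312% with the minus strand lower), among them 19 members, or 1.89% (1.14 to 2.94). All 19 had the same strand lower as in the control, at differences of 51.9 to 100 points, and 0 had the other strand lower. At an unadjusted p under 0.05 in the same exact test, 143 members had the same strand lower and 14 the other strand, or 14.2% and 1.39%, against a background of 3.62% in either direction. Over all sites with unequal control strands 0.0074% were called with the control's lower strand also lower. The test compares the reads of the strands in 1 library, not the treatments. At 30 members the TGF-beta calls were too few to be called even at 0% against 100%.

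The lean grew with the size of the control difference over the 4178055 eligible sites whose control strands were unequal. Sites that differed by more than 0 and less than 10 points in the control differed by a mean of 0.206 points the same way when read with TGF-beta, and sites at 40 to 50 points by 2.36. The mean was 10.5 points in the class from 70 to 80 points, 15.6 from 80 to 90 and 31.9 in the 30 sites at 90 points or more. The share called with the same strand lower was 0.00123% in the lowest class, 0.107% from 40 to 50 points and 5.16% from 80 to 90. From 50 points upwards 0 sites were called with the other strand lower. Across all 5093136 sites the strand differences of the libraries had r = 0.0542, a description only, since neighbouring sites share reads.

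**Figure D2:**
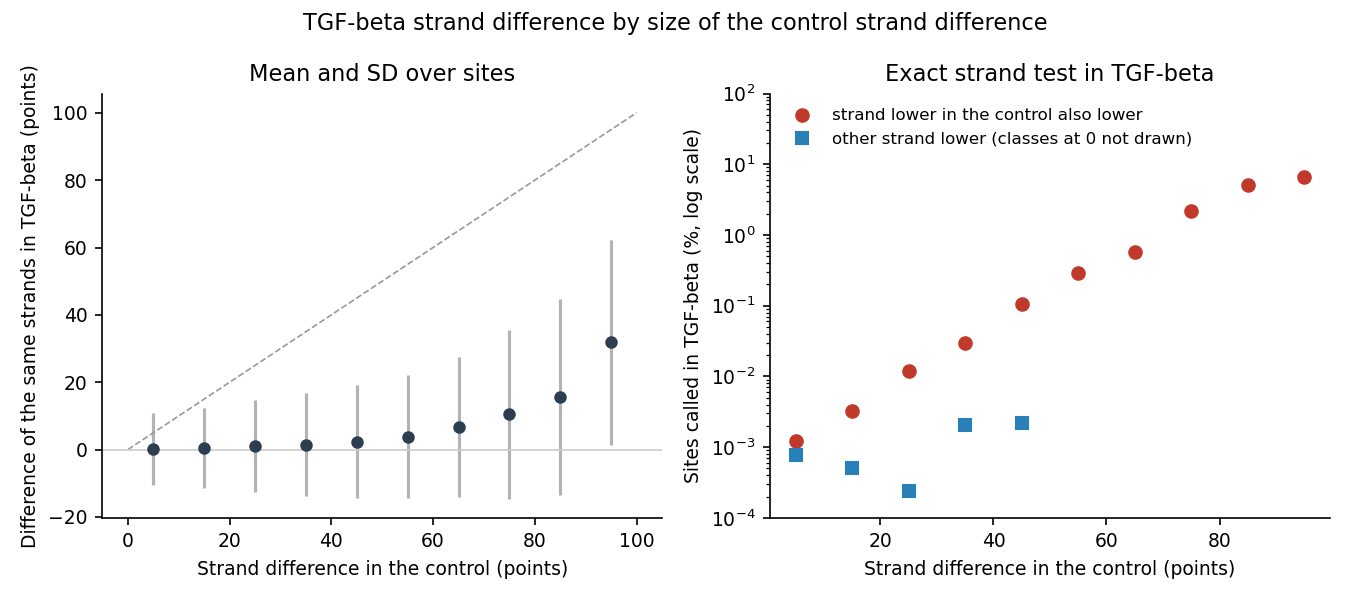
Strand difference in the TGF-beta library by class of strand difference in the control, both in percentage points, over eligible sites with unequal control strands. Left, mean with SD over sites, and the dashed line is equality of the libraries. Right, percentage of sites called by the exact strand test in the TGF-beta library on a log scale, which reached 5.16% in the class from 80 to 90 points and 6.67% in the highest class, with the control's lower strand also lower.

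The strands of members remained further apart in the TGF-beta library than those of ordinary intermediate sites. Such a set was made of the 538602 eligible sites at 30% to 70% in the control with strands within 20 points of each other. The strands were 20 points or more apart in the TGF-beta library at 34.8% of members (31.8 to 37.8), against 19.9% of the intermediate sites (19.8 to 20.1). The median absolute difference was 13.6 points at members and 10.0 at intermediate sites. The strand test called 1.89% of members and 0.00594% of intermediate sites (0.00406 to 0.00839). Both strands lay between 20% and 80% at 57.9% of members and at 64.5% of intermediate sites. Members were shallower than eligible sites as a whole in the TGF-beta library, with medians of 46 and 56 calls over both strands, and the part of depth in their strand differences was not tested.

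The 16 sites that met the limits in both libraries lay on 11 autosomes, with the minus strand low at 10 and the plus strand low at 6. Across them the low strand ran between 0% and 20.0% in the TGF-beta library with a median of 9.19%, and between 0% and 20.0% in the control with a median of 10.6%. The high strand ran between 82.4% and 100% in the TGF-beta library with a median of 91.4%, and between 80.0% and 100% in the control with a median of 86.9%. Their strands had 8 to 42 calls in each library. The smallest of the 4 counts was 10 or less at 12 of the 16. The exact strand test called 9 of the 16 in the TGF-beta library, and 7 did not pass it. Unlike the members as a whole, these 16 were also chosen by their TGF-beta levels. The test on the same counts is therefore not independent support, and its p-values at these sites are a description.

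**Figure D3:**
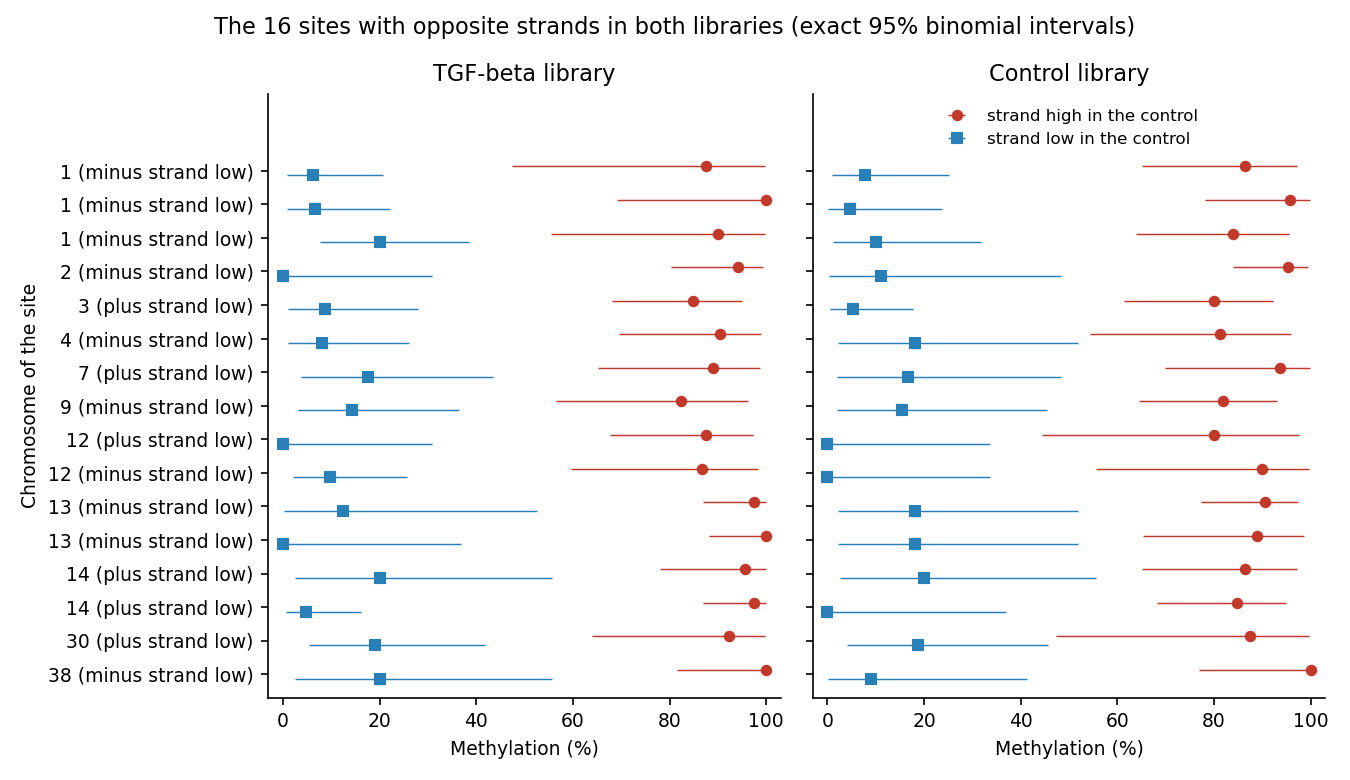
Methylation in percent of the 16 sites with opposite strands in both libraries, 1 row per site in chromosome order, with the TGF-beta library on the left and the control on the right. Squares are the strand low in the control and circles the strand high in the control, with exact 95% binomial intervals. The sites were chosen by the limits in both libraries, so the low strand is at 20% or less in each by choice. The high strand was at 82.4% or more in the TGF-beta library.

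The best covered of the 16 was on chromosome 3 at 79385003 to 79385004, in a sparsely methylated 100 kb stretch at a mean of 35.4% in the TGF-beta library. Its plus strand had 2 methylated of 23 calls in the TGF-beta library and 2 of 38 in the control, and its minus strand had 28 of 33 and 24 of 30. The plus strand thus had few methylated calls in both cultures, at 8.70% (1.07 to 28) in the TGF-beta library. The exact strand test gave an adjusted p of 0.000698. The smallest p belonged to chromosome 14 at 59856109 to 59856110, where the plus strand had 2 of 42 in the TGF-beta library and 0 of 8 in the control, and the minus strand 39 of 40 and 28 of 33. The exact test gave an adjusted p of 1.65e-13 there, at a difference of 92.7 points.

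The low strand was the shallower of the pair at 8 of the 16 sites in the TGF-beta library and at 13 in the control. On chromosome 13 at 34911713 to 34911714 the minus strand had 0 of 8 in the TGF-beta library and 2 of 11 in the control, and the plus strand 29 of 29 and 16 of 18. On the same chromosome at 30297222 to 30297223 the minus strand had 1 of 8 in the TGF-beta library and 2 of 11 in the control, and the plus strand 39 of 40 and 38 of 42. On chromosome 2 at 57071234 to 57071235 the minus strand had 0 of 10 in the TGF-beta library and 1 of 9 in the control, and the plus strand 32 of 34 and 40 of 42. These 3 sites passed the exact strand test, with adjusted p of 0.00147, 0.0185 and 0.00149, on few calls of the low strand. On chromosome 12 at 65389024 to 65389025 the low strand was the deeper one in the TGF-beta library, where the minus strand had 3 of 31 and the plus strand 13 of 15, against 0 of 9 and 9 of 10 in the control, with an adjusted p of 0.0123 in the exact test.

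Other sites met the limits in both cultures without passing the exact strand test. On chromosome 38 at 18639330 to 18639331 the minus strand had 2 of 10 in the TGF-beta library and 1 of 11 in the control, and the plus strand 18 of 18 and 14 of 14, with an adjusted p of 0.113 in the exact test. On chromosome 9 at 44013949 to 44013950 the minus strand had 3 of 21 in the TGF-beta library and 2 of 13 in the control, and the plus strand 14 of 17 and 27 of 33, with an adjusted p of 0.199 in the exact test. On chromosome 7 at 58467173 to 58467174 the plus strand had 3 of 17 in the TGF-beta library and 2 of 12 in the control, and the minus strand 16 of 18 and 15 of 16, with an adjusted p of 0.162 in the exact test. The smallest difference among these 3 sites in the TGF-beta library was 68.1 points. A wide gap and a shared low strand were fixed in advance by the limits that chose the 16. On chromosome 14 at 46649507 to 46649508 the plus strand had 2 of 10 in each library, and the minus strand 22 of 23 in the TGF-beta library and 19 of 22 in the control. On chromosome 1 at 27727199 to 27727200 the minus strand had 2 of 32 in the TGF-beta library and 2 of 26 in the control, and the plus strand 7 of 8 and 19 of 22. On chromosome 30 at 17158278 to 17158279 the plus strand had 4 of 21 in the TGF-beta library and 3 of 16 in the control, and the minus strand 12 of 13 and 7 of 8. These last 3 had adjusted p of 0.156, 0.114 and 0.201 in the exact test.

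Over the 16 sites, one strand was 3 times as deep as the other or more at 6 in the TGF-beta library and at 3 in the control. Over all members that held at 18.3% in the TGF-beta library, and over eligible sites at 22.2%. In the control it held at 3.39% of members and 7.61% of eligible sites.

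At some of the 16 sites the neighbouring CpGs leaned the same way, and at others they did not. Within 10 bp, 4 of the 16 had a neighbour with at least 5 calls on each strand in each library, and each of the 4 neighbours had strands at least 20 points apart, leaning like the site, in both libraries. Within 50 bp this held for 15 of 29 pairings of a site with such a neighbour, beside 8 of the 11 sites that had any. In 13 of the 29 the neighbour's strands were under 20 points apart in the TGF-beta library. Within 100 bp 20 of 45 pairings leaned like the site in both libraries, and 22 were under 20 points apart in the TGF-beta library. A CpG beside several of the 16 is counted for each, as on chromosome 1. Some neighbours were themselves members, so the limits set their lean in the control. In the TGF-beta library the median strand difference of neighbours, high minus low by the strand at the site, was 61.0 points within 10 bp and 17.3 points within 100 bp, and in the control it was 65.3 and 25. Most neighbours this close lie within the length of one sequenced fragment, so they share molecules with the site, and these neighbours are given as a description.

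One such stretch was on chromosome 1. Sites at 28905697 and 28905739 were both among the 16, and on their minus strand they had 2 of 30 and 6 of 30 in the TGF-beta library and 1 of 21 and 2 of 20 in the control. On the plus strand they had 10 of 10 and 9 of 10 in the TGF-beta library, and 22 of 23 and 21 of 25 in the control. The exact strand test called the first, with an adjusted p of 0.00325, and not the second, with 0.357. The CpG between them, at 28905724, was at 9.09% on the minus strand and 100% on the plus strand in the TGF-beta library, and at 5.56% and 79.2% in the control. The next one, at 28905771, was at 25% and 100% in the TGF-beta library, and at 13.3% and 44% in the control. These 4 CpGs thus had a methylated plus strand and a mostly unmethylated minus strand, with the last one weaker in the control.

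On chromosome 12 the site at 31751029 had 0 of 10 on its plus strand and 21 of 24 on its minus strand in the TGF-beta library, and 0 of 9 and 8 of 10 in the control, with an adjusted p of 0.0362 in the exact strand test. Its 5 measured neighbours between 31750967 and 31751038 were at 0% to 16.7% on the plus strand, with 40% to 78.3% on the minus strand, in the TGF-beta library, and at 18.2% to 40% and 66.7% to 100% in the control. One of them, at 31750993, was itself a member. The stretch therefore leaned the same way throughout in both cultures. On chromosome 14, 4 bp before the site at 59856109, a CpG was at 10.3% (plus strand) and 95% (minus strand) in the TGF-beta library, and at 0% and 96.4% in the control.

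Elsewhere most or some of the close neighbours had similar strands. On chromosome 38, the 4 CpGs lying 16 to 33 bp before the site at 18639330 were at 95.7% to 100% on each strand in the TGF-beta library and at 88.9% to 100% in the control. The CpG 17 bp after that site was at 70% on the minus strand and 57.1% on the plus strand in the TGF-beta library, and at 45.5% and 91.7% in the control, so there it leaned like the site in the control alone. On chromosome 2, the CpG 40 bp after the site at 57071234 was at 100% on the minus strand and 98.2% on the plus strand in the TGF-beta library, and at 100% and 95.7% in the control. The CpG 14 bp before that site was at 50% and 69.2% in the TGF-beta library, and at 77.8% and 88.9% in the control, a weaker lean the same way.

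Some neighbours leaned against the site in the control. Beside the chromosome 14 site at 46649507, the CpGs 63, 51 and 42 bp before it had high-minus-low differences, by the strands of the site, of -17.1, -6.41 and -8.93 points in the TGF-beta library and -58.9, -71.5 and -57.7 points in the control. The middle one, at 46649456, was itself a member low on the minus strand, so the limits set its lean in the control. The CpGs close to it can share its reads. Nearer to the site, the CpG 20 bp before it leaned like it, by 26.7 points in the TGF-beta library and 29.3 points in the control. The CpG 30 bp after it had differences of -4.35 and 12.5 points. Beside the chromosome 12 site at 65389024, the CpG 94 bp after it had a difference of -24.2 points in the TGF-beta library and -60.3 points in the control. The other 4 measured CpGs after that site leaned like it in both libraries, by 11.8 to 33.3 points in the TGF-beta library and 20.1 to 30.8 points in the control.

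The chromosome 4 site at 86338960 to 86338961 was among the 16 and lay in a crowd of changing direction. Its minus strand had 2 of 25 in the TGF-beta library and 2 of 11 in the control, and its plus strand 19 of 21 and 13 of 16, with an adjusted p of 0.000757 in the exact strand test. The member 5 bp after it, at 86338965, had 1 of 26 on the minus strand and 10 of 21 on the plus strand in the TGF-beta library, and 1 of 12 and 13 of 14 in the control. The member 43 bp before it, at 86338917, was low on the plus strand, with 6 of 18 there and 18 of 38 on the minus strand in the TGF-beta library, and 2 of 15 and 13 of 16 in the control. The central site alone kept the limits in both libraries.

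The well covered members that were not among the 16 went different ways. On chromosome 5 at 52643545 to 52643546 the plus strand had 14 of 51 in the TGF-beta library and 7 of 48 in the control, and the minus strand 21 of 21 and 20 of 24. It missed the 20% limit in the TGF-beta library and passed the exact strand test, with an adjusted p of 0.000294. On chromosome 34 at 35791748 to 35791749 the minus strand had 58 of 64 in the TGF-beta library and 4 of 22 in the control, and the plus strand 23 of 25 and 17 of 21, so both strands were highly methylated in TGF-beta-treated cells. On chromosome 13 at 38653484 to 38653485 the minus strand had 37 of 105 in the TGF-beta library and 3 of 21 in the control, and the plus strand 11 of 25 and 17 of 21, so both strands were intermediate. Neither of these last sites passed the test (adjusted p of 1 in the exact test at both).

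Across all 1004 members the control's strand difference spread to neighbouring CpGs and faded within about 100 bp. In the TGF-beta library, neighbours 2 to 10 bp away were at 64.4% on the strand that was low at the member in the control and 67.5% on the other, a mean difference of 3.09 points ± 16.1 (SD over 550 neighbours). The difference was 1.49 points at 11 to 25 bp, 0.992 at 26 to 50 bp and -0.130 at 51 to 100 bp. In the control the same neighbours were at 50.4% and 75.4%, a mean difference of 25 points ± 26.2 at 2 to 10 bp. It was 13.7 points at 11 to 25 bp, 5.70 at 26 to 50 bp, 2.84 at 51 to 100 bp and 0.0205 beyond 200 and up to 500 bp. Neighbours beyond 200 bp were near 70% on each strand in both libraries. Control neighbours within a read length come in part from the molecules that chose the member, and the part of that sharing was not tested.

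**Figure D4:**
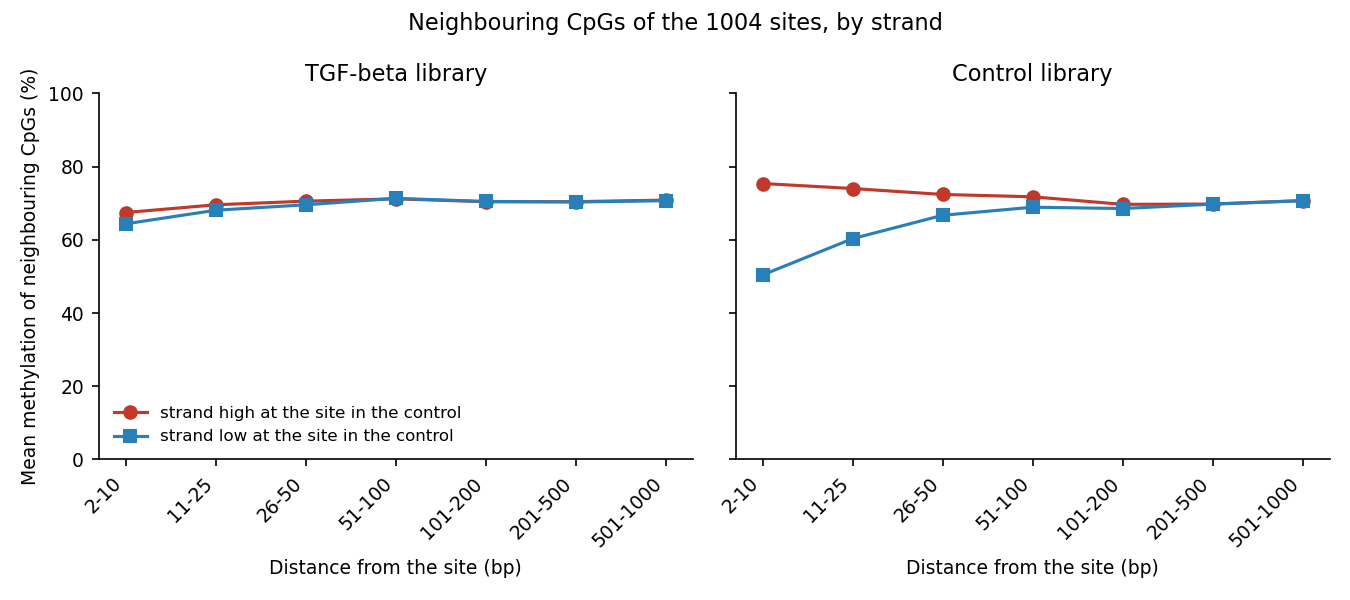
Mean methylation in percent of CpGs around the 1004 sites by distance in bp, with the TGF-beta library on the left and the control on the right. Circles are the strand that was high at the site in the control and squares the strand that was low. Within 10 bp the strands are at 67.5% and 64.4% in the TGF-beta library, and at 75.4% and 50.4% in the control.

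Most members stood alone, but sites next to a member were members more often than eligible sites as a whole. With members at most 100 bp apart joined, 33 of 1004, or 3.29% (2.27 to 4.59), fell into 15 groups, 12 of 2 members and 3 of 3. Among the 4327 pairings of a member with an eligible neighbour within 100 bp, the neighbour was a member in 42, or 0.971%, against 0.0197% of all eligible sites. The neighbour had the same low strand in 34 of those 42. Within 10000 bp the share of neighbours that were members was 0.0623%, or 68 of 109093. These counts are cumulative, and the 68 include 46 within 1000 bp and the 42 within 100 bp. The share within 10000 bp thus rests mostly on the closest pairings. Pairs within 100 bp share reads, so they are not separate observations.

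The largest groups had 3 members each. That on chromosome 5 from 39373119 to 39373126 was low on the minus strand throughout, where its sites had 14 of 34, 18 of 36 and 19 of 36 in the TGF-beta library and 2 of 17, 3 of 18 and 2 of 17 in the control. On the plus strand these had 4 of 8, 6 of 9 and 6 of 9 in the TGF-beta library, and 7 of 8, 8 of 9 and 8 of 9 in the control, so the strands were close in the TGF-beta library. That on chromosome 24 from 45596306 to 45596397 was low on the plus strand throughout, with 7 of 13, 9 of 15 and 14 of 20 in the TGF-beta library and 2 of 10, 1 of 8 and 1 of 11 in the control. Its minus strand had 11 of 15, 8 of 10 and 7 of 13 in the TGF-beta library, and 11 of 12, 11 of 12 and 13 of 16 in the control. None of these 6 sites passed the exact strand test in the TGF-beta library. The third group of 3 is the one on chromosome 4 described above.

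The rate of opposite sites fell with depth, which is a description since the control counts chose the members. It was 3.37 per 10000 eligible sites where the shallower control strand had 8 or 9 calls, 2.36 at 10 to 14, 0.484 at 15 to 19, 0.173 at 20 to 29 and 0.0609 at 30 calls or more. The last class held 1 member, the chromosome 3 site. The same strand was the lower one in the TGF-beta library at 276 of 454 members in the shallowest class, or 60.8% (56.1 to 65.3). With 10 to 14 calls that held at 277 of 495, or 56.0% (51.5 to 60.4). With 15 to 19 calls it held at 32 of 44, or 72.7% (57.2 to 85.0), and with 20 to 29 at 7 of 10. The share thus did not rise steadily with depth, and the intervals given overlap.

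The order of the rate across classes of CpG density and of the level of the surrounding 100 kb depended on the sites it was set against. With 0 to 4 other listed CpG sites within 500 bp the rate was 1.56 per 10000 (1.12 to 2.12), and with 40 or more it was 2.24 (1.98 to 2.52). Among sites whose shallower control strand had 8 to 14 calls those rates were 2.74 and 2.64, so the order did not hold there. Set against intermediate sites, members numbered 12.1 per 10000 with 0 to 4 listed CpG sites and 28.9 with 40 or more. In 100 kb domains with a mean site level under 40% in the TGF-beta library the rate was 2.71 (2.14 to 3.38), and in those at 80% or more it was 0.871 (0.707 to 1.06), or 4.20 and 1.25 at 8 to 14 calls. Intermediate sites also thinned out along that scale, at 1821 and 398 per 10000 eligible sites in the lowest and highest class. Per 10000 intermediate sites of those classes, members numbered 14.9 and 21.9, the other order.

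The 16 sites opposite in both libraries had a median of 9.5 other listed CpG sites within 500 bp, against 21 for all members and 20 for eligible sites, and 3 of the 16 had 20 or more. Their 100 kb domains had a median level of 74.6% in the TGF-beta library, against 64.4% for all members and 69.5% for eligible sites. With 16 sites these medians are given as a description.

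**Figure D5:**
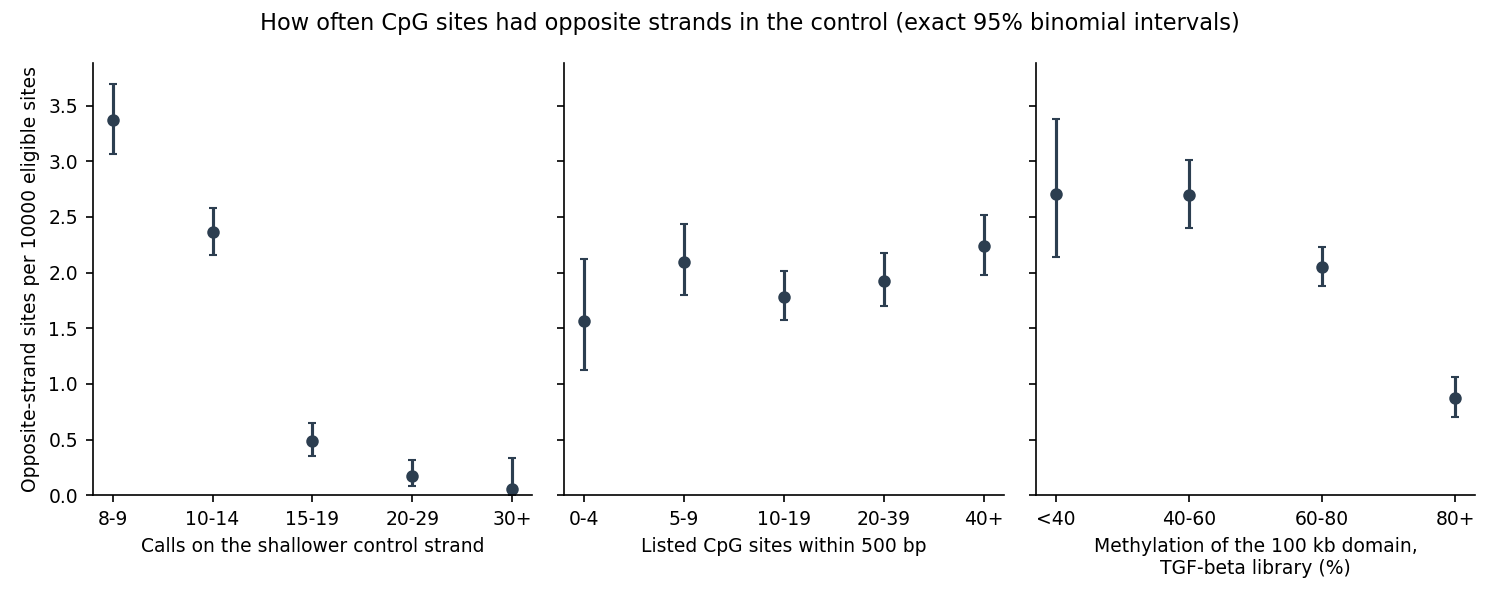
Sites with opposite strands in the control per 10000 eligible sites, with exact 95% binomial intervals, by calls on the shallower control strand (left), by number of other listed CpG sites within 500 bp (middle) and by the mean methylation in percent of the surrounding 100 kb in the TGF-beta library (right). The rate fell with depth, to 0.0609 at 30 calls or more, and was lowest in highly methylated domains at 0.871.

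Every autosome held members, between 5 on chromosome 32 and 74 on chromosome 1. The rate ran between 1.3 per 10000 on chromosome 20 and 4.05 (2.73 to 5.78) on chromosome 12, followed by 3.48 (2.09 to 5.43) on chromosome 38. On these last chromosomes the shallower control strand had a median of 11 calls, against 12 over all eligible sites, and at 8 to 14 calls their rates were 5.14 and 4.87. Over all autosomes the rate was 3.37 at 8 or 9 calls and 2.36 at 10 to 14. Of 2220 bins of 1 Mb, 1516 held 0 members and 25 held 4 or more. The most crowded were chromosome 28 from 39000001 to 40000000, with 7 among 12209 eligible sites, and chromosome 24 from 45000001 to 46000000, with 7 among 15225. These bins, and the chromosomes named for their rates, were picked after their counts were seen.

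Read the other way round, the same limits picked 471 sites in the TGF-beta library, and 16 of these, or 3.40% (1.95 to 5.46), were opposite in the control. At the other 455 the control's median was 45.5% on the strand low in the TGF-beta library and 62.5% on the other strand. Of these 455, 300 leaned the same way in the control, or 65.9%. The matching share over all eligible sites was not taken, nor the number of ties. By these limits the pattern chosen in either library was therefore mostly absent from the other, while the lean remained in part.

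Sites at the edge of the rule show how little separates inside from outside. Just inside, a site on chromosome 1 at 89588624 had 30 of 58 (plus strand) and 31 of 44 (minus strand) in the TGF-beta library, and 4 of 20 and 14 of 15 in the control. Just outside the low limit, a site on chromosome 3 at 67714851 had 18 of 27 on the minus strand and 7 of 14 on the plus strand in the TGF-beta library, and 9 of 44 and 8 of 10 in the control. Just outside the high limit, a site on chromosome 19 at 12906982 had 12 of 12 (plus strand) and 25 of 35 (minus strand) in the TGF-beta library, and 2 of 10 and 27 of 34 in the control. The chromosome 3 site at 79385003 lay exactly on the high limit in the control.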

How the data were processed

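Per the labels' protocols, methylated adapters were ligated to sonicated DNA before bisulfite conversion, and short inserts cut from a gel were amplified by PCR. The deposited values are a count of methylated and a count of unmethylated calls for each listed CpG cytosine, with strands on separate lines. Bismark, Bowtie 0.12.8 and canFam3 are named per the submitters' processing notes, whereas the extraction protocol in the labels names SOAPaligner2. Whether duplicates or overlapping mates were removed is not stated, and either would change how independent the calls are. The methylated column was taken from the values, as mitochondrial DNA is almost free of that call. In each file 1 line without a chromosome was left out.

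Listed positions of both files were joined, runs of adjacent positions were split into pairs, and 6548 autosomal positions in odd runs were left out. Strand calls were compared by Fisher's exact test (two-sided), adjusted over all eligible sites by Benjamini and Hochberg's method and tested on simulated data. Neighbours needed 5 calls on each strand in each library, and the levels of 100 kb domains used sites with 5 calls. Sites named are those with the largest smallest count of the 4 strand and library counts (the 6 of the 16 with calls up to 2 times the median, the 4 of all members), the largest groups, and those nearest the limits. The other sites named among the 16, their neighbours and the crowded bins were picked after their values were seen. The members, limits and comparison sets were chosen with earlier results of these data known. Alternatives were other minimum calls, limits and distances, and the choice of sites in the TGF-beta library. Others left out very deep sites, runs of adjacent CpGs or grouped members. In another, TGF-beta calls were drawn down to the control count on strands where they exceeded it. The tools were scipy 1.17.1, numpy 2.4.6, numba 0.67.0, pandas 2.3.3 and matplotlib 3.10.9 under Python 3.11.15.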

Additional observations from a re-analysis of the deposited data

How the results depend on the processing

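The number of opposite sites rested on depth and limits. It was 115 with at least 12 calls per strand, 6 with at least 20, 42 with limits of 90% and 10%, 11576 with 70% and 30%, and 471 when chosen in the TGF-beta library. The share with the same strand low in the other library was 2.61%, 16.7% (1 of 6) and 3.40% with 12 calls, 20 calls and the choice in the TGF-beta library. It stayed within its interval under the other 6 settings, leaving out the 33 grouped members among them (11 of 971, an alternative chosen after seeing the data). The share called by the exact strand test was 5.22% with 12 calls, 33.3% with 20 calls, 7.14% with limits of 90% and 10%, 0.441% with 70% and 30%, and 0.598% with TGF-beta calls drawn to control counts. The last setting has fewer calls to test. A called member with the other strand lower occurred once, at limits of 70% and 30%.

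The share of members in groups was 1.74% (2 of 115) and 0% (0 of 6) with 12 and 20 calls. It was 0% (0 of 42) and 7.39% with the stricter and looser limits and 5.31% when chosen in the TGF-beta library. The summed level of the low strand in the other library was 46.3% with 12 calls, 40.8% and 50.6% with the stricter and looser limits, and 43.7% when chosen in the TGF-beta library. It was 49.0% with TGF-beta calls drawn down to the control count on strands where they exceeded it. In that last setting the sites are unchanged and the calls alone differ, which also changes the weight of each site in the sum. The cause of these shifts was not tested. No paired analysis was possible because each group has 1 library. The depth of 8 to 14 calls per strand limits the level of most single sites.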
